A study of Mus musculus with 18 samples.

Results

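The genes described here are those that estradiol (E2) moved the same way in the livers of both mouse models of obesity. The livers came from ovariectomized female C57BL/6 mice, which lack ovarian estrogen in every group. DIO mice were wild type, made obese by food with fat at 45% of its calories and 0.2% added cholesterol. The ob/ob mice, which make no leptin, ate a normal AIN-76A diet. For 6 weeks an osmotic minipump released vehicle or E2 at 5 µg/kg/day, and a further group of each model received 300 µg/kg/day of the ligand PaPE-1. Each of the 6 groups has 3 libraries of liver RNA, so that 12 of the 18 libraries, 6 with E2 and 6 with vehicle, were compared. A gene counted as common when its 3 E2 libraries all lay above, or all below, the 3 vehicle libraries in DIO liver and did so again, in the same direction, in ob/ob liver. By this rule 509 of the 14123 genes tested were common (3.6%), 276 higher with E2 (1.95%) and 233 lower (1.65%). A further 102 genes (0.722%) lay apart in both models but in opposite directions. Groups lay apart in DIO liver for 4.42% of genes above vehicle and 5.67% below it, and in ob/ob liver for 20.8% and 19.5%.

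E2 acts through estrogen receptor alpha, a nuclear receptor that binds DNA when it holds its ligand and that hepatocytes make from the gene Esr1. In rodents estrogen also acts on liver through the pituitary, because the pattern of growth hormone secretion, read in hepatocytes by the transcription factor STAT5, sets which cytochromes P450, sulfotransferases and urinary proteins are made at female or male levels. Loss of ovarian estrogen is known to favour fat storage in liver, and E2 replacement is known to oppose it.

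Expression is given in CPM, counts relative to library size and scaled by the TMM method, and changes as log2 fold changes of E2 against vehicle with standard errors (SE). Each SE was derived from the test below, as the absolute log2 fold change divided by the square root of its F statistic. The p-values come from edgeR's quasi-likelihood test with Benjamini-Hochberg adjustment over all genes tested, in a fit with 1 term for the model and 1 for E2 over the 12 libraries. This test called 273 genes higher (1.93%) and 203 lower (1.44%), 3.37% together, at an adjusted p under 0.05. Since the file headers give different lane names for the models, levels in DIO and ob/ob liver were not compared, and only the differences within a model were.

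Some libraries bore on the counts more than others. Total counts lay between 10470665 and 21703791 over the 18 libraries. Among the DIO E2 livers, library 1 went against the others in the balance of short and long genes. Genes with exons of under 1500 bases in all stood at a median of -0.16 (log2 CPM relative to the vehicle mean) in library 1, at 0.27 in library 2 and at 0.13 in library 3. Without library 1 the test over both models called 1064 genes higher and 1082 lower, and 924 and 763 genes were common. By contrast, 43 genes were called higher and 27 lower without E2 library 2 of ob/ob liver, 46 and 35 without its E2 library 3, and 144 and 82 without its E2 library 1. The smallest counts without 1 vehicle library were 90 higher and 73 lower, without vehicle library 2 of ob/ob liver. Genes apart in opposite directions, 102 with all libraries, numbered 780 without DIO E2 library 2, beside 522 common higher and 433 common lower. Without DIO vehicle library 1 they numbered 368, beside 401 and 390. The balance of common and opposite genes thus depended on single DIO libraries. In DIO liver, E2 library 2 had Pearson correlations of 0.987, 0.982 and 0.986 with vehicle libraries 1 to 3. With E2 libraries 1 and 3 they were 0.968 and 0.980, so E2 library 2 was closer to each vehicle library. E2 libraries 1 and 3 correlated at 0.982 with each other, above their values with any DIO vehicle library. Scaling by total counts alone gave 159 genes higher and 474 lower and 143 and 432 common genes, so the excess of higher genes is not kept under that scaling.

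In the plot of both models' fold changes, the common genes reached further along the ob/ob axis. The median log2 fold change of the 276 higher genes was 0.39 in DIO and 0.60 in ob/ob liver, and that of the 233 lower genes was -0.37 and -0.64. Of the 509, 417 changed more in ob/ob liver. The test over both models called 148 of the higher and 124 of the lower genes, which is 53.4% of the common genes and 57.1% of the genes called, where 3.37% of all genes were called. Since the rule and the test use the same 12 libraries, nothing is read from this share. Another 187 of the called genes lay apart only in ob/ob liver and 15 only in DIO liver. Within DIO liver alone 0 genes passed an adjusted p of 0.05 in edgeR. At an unadjusted p under 0.05 there were 532 increases and 446 decreases, and DESeq2 called 34 higher and 15 lower. In ob/ob liver edgeR called 1185 higher (8.39%) and 1303 lower (9.23%).

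**Figure D1:**
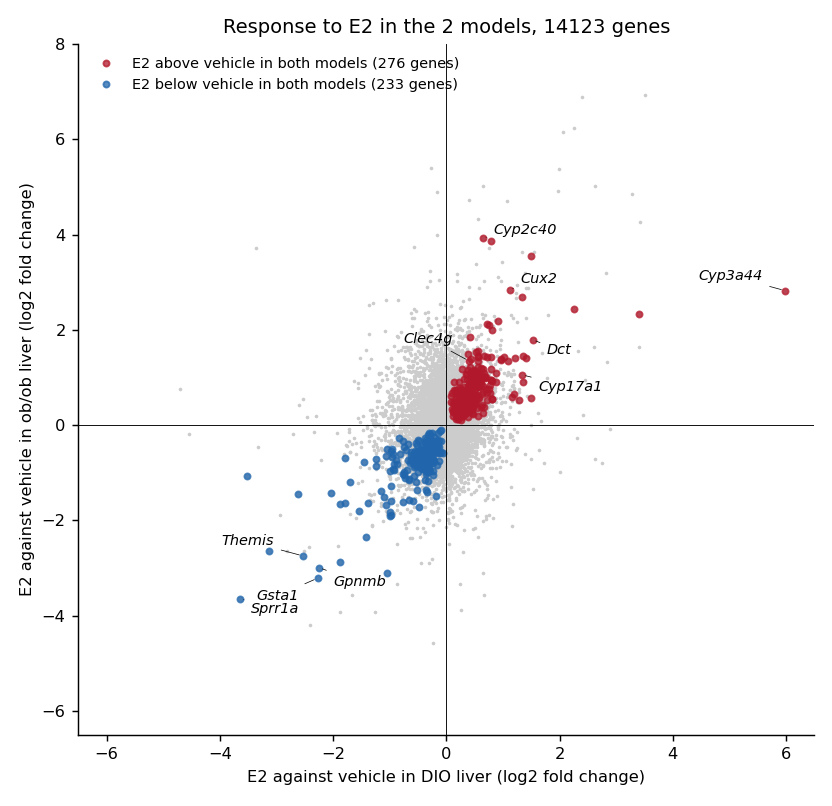
Log2 fold changes of E2 against vehicle in DIO liver (x axis) and ob/ob liver (y axis) for the 14123 genes tested (grey), with the 276 genes higher and 233 genes lower in both models in colour. The coloured genes fall in 2 quadrants because the rule selects them, and their medians are 0.39 and 0.60 (higher) and -0.37 and -0.64 (lower) in DIO and ob/ob liver.

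Genes called in ob/ob liver were also looked up in DIO liver. The models share no libraries, but the 4 groups share 1 estimate of the spread in the fit that made the calls. DIO libraries therefore enter the ob/ob calls, which numbered 1563 higher and 1729 lower without DIO E2 library 1. The look-up is thus not independent of the calls. Of the 1185 genes called higher in ob/ob liver, 14.5% had all DIO E2 libraries above vehicle, against 4.42% of all genes, and 2.7% had them below, against 5.67%. Of the 1303 called lower, 12.7% lay below vehicle in DIO liver and 1.0% above. Per library, the genes called higher in ob/ob liver had a median of -0.01 in DIO E2 library 1, 0.20 in library 2 and 0.15 in library 3 (log2 CPM relative to the DIO vehicle mean). Library 1 thus did not share this shift with the other DIO E2 livers. These shares are descriptions, since genes of 1 liver are not independent.

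The common genes differed in size. Summed exon length had a median of 2115 bases in the higher genes and 5161 in the lower genes, against 3612 over all genes tested. Among genes under 1500 bases, 4.17% were common higher and 0.475% common lower, and among genes over 6000 bases 0.454% and 2.39%. Short genes as a whole were above vehicle in the 3 ob/ob E2 libraries, with medians of 0.25, 0.32 and 0.25, and long genes were below, at -0.12, -0.21 and -0.16. With each library's trend on exon length removed, 284 genes were common higher and 198 lower, but only 108 and 90 were among the genes above, and 69 and 52 genes remained both common and called. All 509 kept the sign of their log2 fold change. Of the calls named below, those of Cyp2a4, Apoa1, Igha, Lamc1, Slc7a11, Top2a, Zfp618, Vsig4, Serpina1b and Vldlr were lost with this removal (adjusted p between 0.0574 and 0.1). Acot3, Cyp2b10, Ephx1 and Steap4 were not looked up singly under it.

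**Figure D2:**
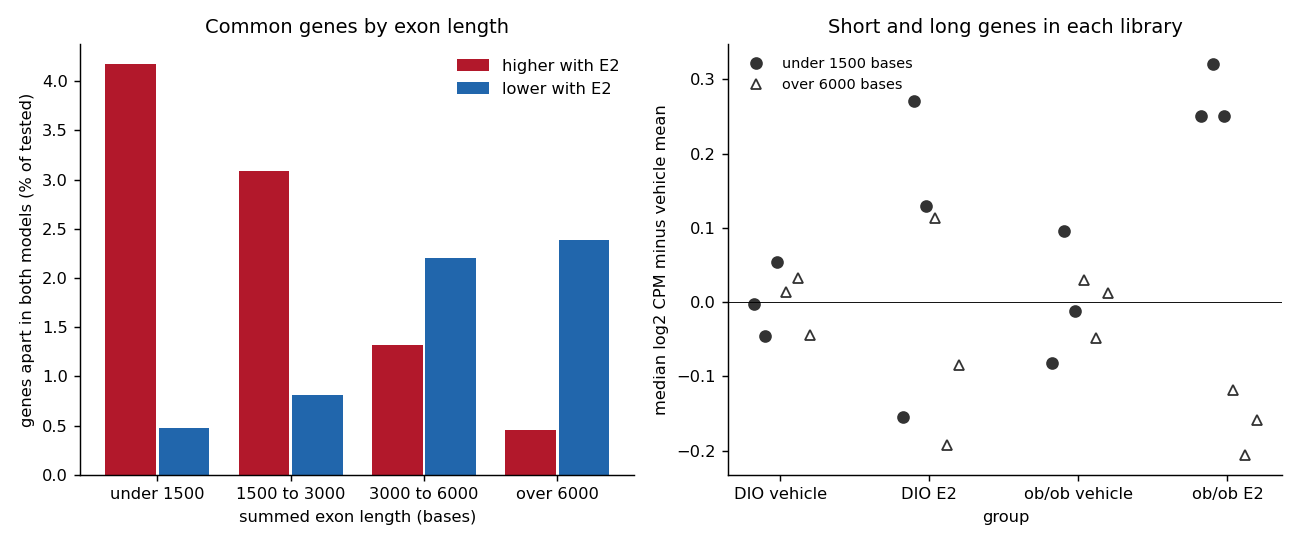
Left, the percentage of tested genes that were common, by summed exon length in bases, for genes higher and lower with E2. Right, the median of short (under 1500 bases) and long (over 6000 bases) genes in each library, as log2 CPM minus its own vehicle mean, with 3 libraries per group; short genes lie at 0.25 to 0.32 in ob/ob E2 liver and at -0.16 in 1 DIO E2 library.

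Of the genes by which estrogen and growth hormone act on liver, Cux2, a transcription factor made in female liver, was common. It stood at 33.9, 39.9 and 47.6 CPM with vehicle and 120, 55.5 and 87.4 with E2 in DIO liver. The ob/ob libraries stood at 1.12, 1.51 and 3.47 CPM with vehicle and 16.5, 13.8 and 14.7 with E2. All E2 livers thus lay above vehicle, with the widest spread among DIO E2 livers. Its call was lost in 4 of the 12 fits without 1 library (adjusted p up to 0.0738). Its log2 fold change over both models was 1.78 (SE 0.35, adjusted p = 0.0261), 1.11 in DIO and 2.84 in ob/ob liver.

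Esr1 itself, on chromosome 10 from 4561989 to 4955633 of GRCm39, rose by 0.88 on the log2 scale over both models (SE 0.20, adjusted p = 0.0311). It was not common, because the E2 livers of DIO mice, at 81.8, 45.4 and 101 CPM, overlapped the vehicle livers at 47.3, 33.0 and 34.2. In ob/ob liver the E2 libraries, at 26.0, 19.7 and 21 CPM, lay above vehicle at 18, 10.6 and 10.7. Esr1 was common with the length trend removed, and its call was lost in 8 of the 12 fits without 1 library (adjusted p up to 0.0727). Igf1, the growth factor that liver secretes under growth hormone, was at 792, 473 and 793 CPM with E2 against 484, 533 and 450 with vehicle in DIO liver. It was, for ob/ob liver, at 453, 494 and 475 against 307, 186 and 188 CPM. DIO E2 library 2 was the one below a vehicle library. Igf1 (log2 fold change 0.77, adjusted p = 0.025), its binding partner Igfals (1.10, adjusted p = 0.02) and the STAT5 target Cish (0.84, adjusted p = 0.0215) rose over both models in edgeR without being common. Their calls were lost in 6, 2 and 4 of the 12 fits without 1 library. Socs2, another STAT5 target, was at 1.14 (adjusted p = 0.0718) and Bcl6, a repressor of female-type genes, at -0.55 (adjusted p = 0.293).

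Of 18 tested genes of the growth hormone and STAT5 axis, 4 rose and 0 fell, with a median of 0.30 against 0.004 over all genes, and 1 was common. For this and each list below, the shares over all genes tested were 1.93% rising and 1.44% falling. Those of common genes were 1.95% higher and 1.65% lower. Among 15 tested genes of estrogen receptors and their responses, Cish and Esr1 rose and Foxa1, a pioneer factor that opens receptor binding sites, fell (-0.42, SE 0.10, adjusted p = 0.0328). This call was lost in 7 of the 12 fits without 1 library (adjusted p up to 0.09). Foxa1 was common, at 16.9, 14.4 and 15.9 CPM with E2 against 18.7, 18.5 and 20.1 in DIO liver and 9.54, 8.73 and 10.9 against 13.4, 15.7 and 14.6 in ob/ob liver. Esr2, Gper1, Pgr and Greb1 had 0, 8, 1 and 5 counts over the 12 libraries and were not tested.

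Genes made at higher levels in female liver moved mostly upward. Of 44 tested, 9 rose and 2 fell (Cd36 and Cyp2b10) at an adjusted p under 0.05, 7 were common higher and 1 lower, and the median log2 fold change was 0.61. By library the mean of the list lay at 0.89, 0.22 and 0.97 in DIO E2 liver against -0.15 to 0.12 in vehicle liver, and at 1.52, 0.92 and 1.02 in ob/ob E2 liver against -0.22 to 0.38. On this mean E2 lay above vehicle in both models, and DIO E2 library 2 was the lowest. Summed CPM of the list overlapped in both, at 8854 to 15024 with E2 against 7841 to 8858 in DIO liver and 4924 to 6071 against 3802 to 5818 in ob/ob liver. After removal of the length trend 10 rose and 2 fell, and 8 were common higher. Without vehicle library 2 of ob/ob liver 1 rose, and without DIO E2 library 2 15 rose and 17 were common higher.

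Cyp3a44, a female-specific cytochrome on chromosome 5, had the largest log2 fold change of the common genes, 5.71 (SE 1.16, adjusted p = 0.0328). In DIO liver it stood at 7.53, 5.28 and 10.8 CPM with vehicle and at 892, 13 and 578 with E2. The increase in E2 library 2 was thus small beside that of the others. In ob/ob liver it was close to the detection limit, at 0, 0.356 and 0.359 CPM with vehicle and 2.44, 1.21 and 1.42 with E2. Its call was lost in 10 of the 12 fits without 1 library (adjusted p up to 0.0791). Cyp17a1, the enzyme of androgen synthesis, rose more evenly, from 174, 70.0 and 115 CPM to 289, 295 and 322 in DIO liver and from 89.3, 135 and 124 to 210, 209 and 306 in ob/ob liver. Its log2 fold change was 1.20 (SE 0.19, adjusted p = 0.0098), with 1.34 in DIO and 1.06 in ob/ob liver. The call of Cyp17a1 was kept in all 12 fits without 1 library. It was lost with all 18 libraries in edgeR's fit (adjusted p = 0.068). Cyp2a4, a steroid hydroxylase of female liver, was at 0.91 (adjusted p = 0.0271), with 1.28 in DIO and 0.53 in ob/ob liver. That call was lost in 4 of the 12 fits without 1 library (adjusted p up to 0.0631), and with the length trend removed (adjusted p = 0.0701), when Cyp2a4 was not common either.

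Other cytochromes were common too. Of 56 tested genes of the Cyp2, Cyp3 and Cyp4 families, 8 were common higher and 3 lower, and 9 rose and 3 fell by the test. With the length trend removed the common genes of these families numbered 1 higher and 4 lower. Cyp2c70, which makes muricholic acids in mouse bile, rose by 0.77 on the log2 scale (adjusted p = 0.0215, lost in 3 of the 12 fits without 1 library). These genes lie in clusters of close paralogs, as do the Mup, Gsta, Serpina1 and immunoglobulin genes named here, and the split of reads among paralogs is uncertain. Sult1a1, a sulfotransferase of phenols and estrogens, rose from 395, 354 and 413 CPM to 457, 575 and 637 in DIO liver and from 266, 241 and 311 to 430, 487 and 477 in ob/ob liver. All its E2 values exceeded vehicle, and its log2 fold change was 0.65 (SE 0.11, adjusted p = 0.00925).

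Genes made at higher levels in male liver went the other way in part. Of 38 tested, 0 rose and 4 fell, 4 were common lower, and the median was -0.16. Over all genes 1.44% fell and 1.65% were common lower. The 4 common genes were Gsta1, Mup20, Cyp2d9 and Cyp2f2, the last at -0.34 (adjusted p = 0.0795). Mup20, the pheromone darcin of male urine, stood at 102, 122 and 221 CPM with vehicle and 16.6, 89.6 and 15.6 with E2 in DIO liver. The ob/ob libraries stood at 762, 1099 and 1562 CPM with vehicle and 168, 139 and 159 with E2. DIO E2 library 2 again lay nearest to vehicle. The log2 fold change of Mup20 was -2.38 (SE 0.49, adjusted p = 0.0328), and its call was lost in 8 of the 12 fits without 1 library (adjusted p up to 0.103). Cyp2d9, a testosterone hydroxylase, fell from 35.8, 52.4 and 49.4 CPM to 8.77, 30.1 and 13.8 in DIO liver and from 114, 291 and 239 to 83.8, 67.7 and 54.6 in ob/ob liver (-1.52, SE 0.30, adjusted p = 0.0274), a call lost in 7 of the 12 fits without 1 library.

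Gsta1, a glutathione transferase on chromosome 9 from 78137951 to 78149965, shared the smallest adjusted p of the common genes with 1 transcript that has only a clone name. It stood at 1.90, 1.20 and 2.66 CPM with vehicle and 0.320, 0.678 and 0.157 with E2 in DIO liver, and at 11.7, 19.3 and 21.7 against 1.22, 2.28 and 2.16 in ob/ob liver. The log2 fold change was -2.90 (SE 0.31, adjusted p = 0.00125). Of 38 tested genes of glutathione transferases and NRF2 targets, which protect cells from oxidants, 0 rose and 5 fell. The others were Gclc, which makes the first step of glutathione synthesis (-0.48, adjusted p = 0.0215, common), Srxn1 (-0.66), Slc7a11 (-2.68, at 2.40 CPM or less in each of the 12 libraries) and Ephx1. Without 1 library the calls of Gclc, Srxn1 and Slc7a11 were lost in 3, 2 and 7 of 12 fits, and that of Gsta1 in 0. The list's median was -0.08.

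**Figure D3:**
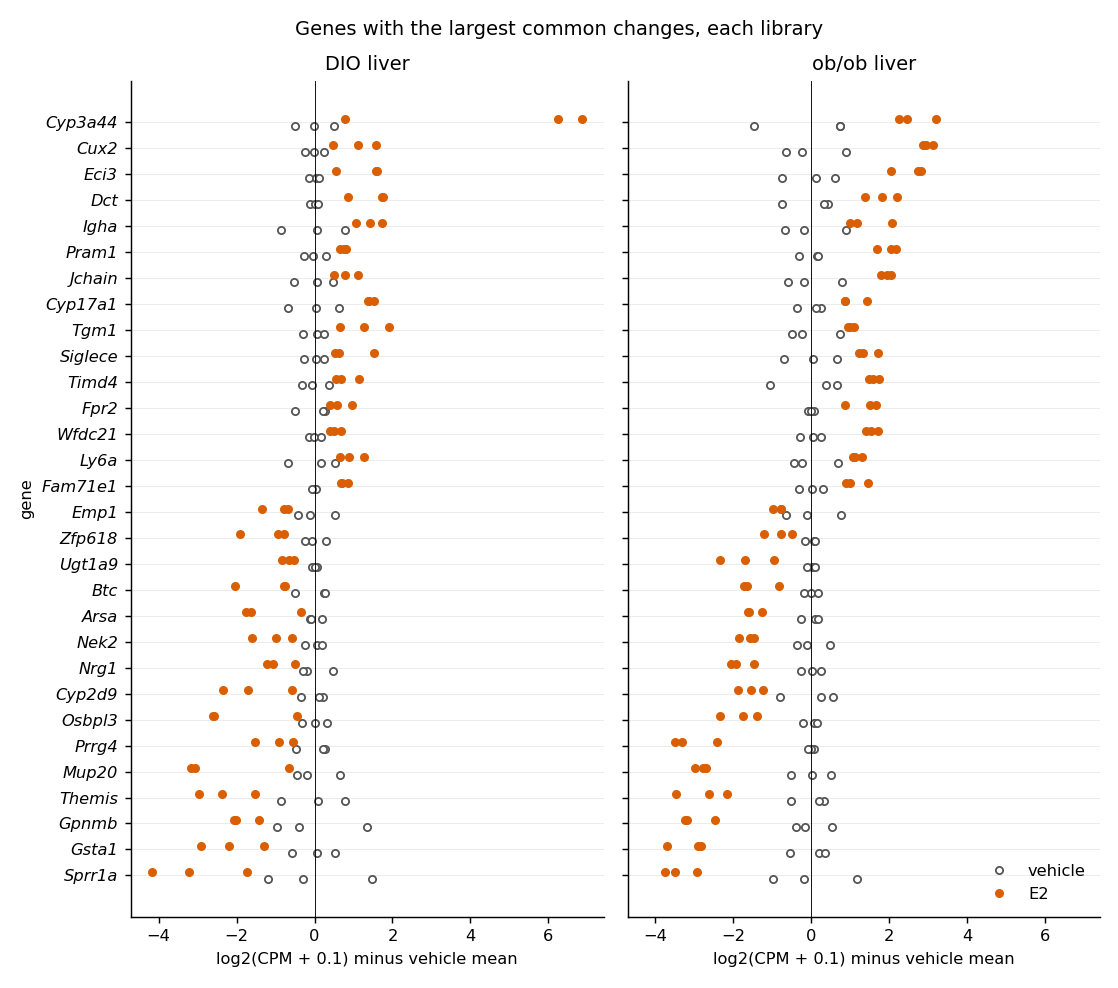
Each library's value for the 15 largest increases and 15 largest decreases among common genes with an adjusted p under 0.05, as log2(CPM + 0.1) minus the vehicle mean, in DIO (left) and ob/ob liver (right), with 3 E2 and 3 vehicle libraries each. No E2 point overlaps the vehicle points of its gene, by the rule; in DIO liver E2 library 2 was nearest to vehicle for 9 of the increases and 11 of the decreases.

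Of the remaining largest increases, Dct, the melanin enzyme dopachrome tautomerase, was the most even between models. It stood at 3.55, 3.86 and 4.08 CPM with vehicle and 12.9, 7.07 and 13.1 with E2 in DIO liver, and at 1.31, 3.11 and 2.87 against 10.8, 6.11 and 8.22 in ob/ob liver. The log2 fold changes were 1.52 and 1.79, and 1.64 over both (SE 0.21, adjusted p = 0.003). Eci3, a peroxisomal isomerase of unsaturated fatty acids, rose by 1.70 on the log2 scale (SE 0.28, adjusted p = 0.01). Tgm1, a transglutaminase, rose from 14.7, 11.4 and 16.6 CPM to 34.1, 22.3 and 52.9 in DIO liver and from 7.94, 4.0 and 3.29 to 9.20, 10.1 and 9.44 in ob/ob liver (1.16, adjusted p = 0.0245, lost in 5 of the 12 fits without 1 library). The others were Wfdc21, Ly6a, Fam71e1, the myeloid genes Pram1, Siglece and Fpr2, the macrophage receptor Timd4, and Igha and Jchain of plasma cells. Their log2 fold changes ran from 0.97 for Fam71e1 to 1.40 for Igha. Jchain lost its call in 9 of the 12 fits without 1 library, Igha in 8, Ly6a in 6, Fpr2 in 5, Siglece in 3 and Fam71e1 in 1.

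Among the largest decreases, Gpnmb, a membrane protein of lysosome-rich macrophages, fell from 1.80, 2.75 and 9.44 CPM to 1.28, 0.824 and 0.783 in DIO liver. It fell in ob/ob liver from 32.8, 62.4 and 38.5 CPM to 4.60, 4.43 and 7.68. The E2 and vehicle values were nearest in DIO liver, at 1.28 and 1.80 CPM. Its log2 fold change was -2.72 (SE 0.41, adjusted p = 0.0108). Sprr1a, a cornified envelope protein, had the largest decrease (-3.64, SE 0.61, adjusted p = 0.0199), from 50.9, 230 and 89.5 CPM to 7.37, 8.86 and 13.3 in ob/ob liver, with all DIO libraries at 4.92 CPM or below, and its call was lost in 2 of the 12 fits without 1 library.

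Themis, known from T cell development, fell from 2.43, 3.99 and 1.23 CPM to 0.365, 0.727 and 0.209 in DIO liver and from 11, 19.9 and 18.1 to 2.50, 1.34 and 3.44 in ob/ob liver (-2.67, SE 0.32, adjusted p = 0.00271). The ligands of the EGF receptor family Nrg1 (-1.50, adjusted p = 0.00627) and Btc (-1.27, adjusted p = 0.0166) fell as well. Arsa, the lysosomal enzyme arylsulfatase A, was at 27.6, 34.5 and 28.4 CPM with vehicle and 9.68, 23.8 and 8.88 with E2 in DIO liver, and at 104, 81.0 and 108 against 31.4, 31.7 and 40.0 in ob/ob liver. The separation was wide in ob/ob liver, and DIO E2 library 2 lay close to vehicle. Its log2 fold change was -1.31 (SE 0.22, adjusted p = 0.013). Prrg4, Osbpl3, Ugt1a9, Zfp618 and Emp1 completed the 15, at -2.20 to -0.98. Zfp618 and Emp1 lost their calls in 8 of the 12 fits without 1 library, Osbpl3 in 4, and Arsa, Btc and Ugt1a9 in 1.

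**Figure D4:**
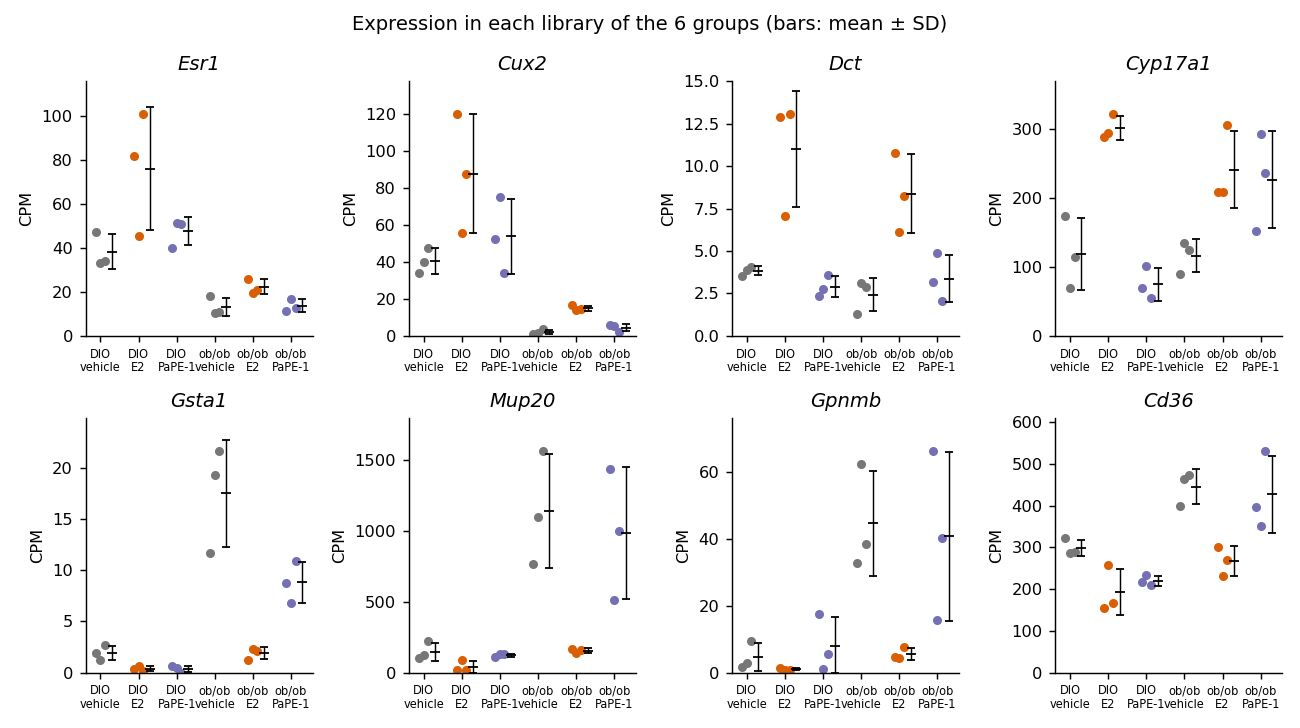
CPM of 8 genes in each library of the 6 groups (points, 3 per group), with mean ± SD to the right of each group; SD bars that would pass below 0 end at the axis, and PaPE-1 libraries were scaled with all 18 libraries. E2 and vehicle points do not overlap within a model, except for Esr1 in DIO liver, where E2 library 2 lies at 45.4 CPM and a vehicle library at 47.3.

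Among genes of fat handling, some of uptake, storage and oxidation had common decreases, while Eci3, described above, was a common increase (1.70). Cd36, the fatty acid translocase, stood at 322, 286 and 289 CPM with vehicle and 156, 258 and 168 with E2 in DIO liver. The ob/ob libraries stood at 399, 465 and 475 CPM with vehicle and 301, 230 and 271 with E2. Every E2 library was below every vehicle library, and Cd36 fell by 0.68 on the log2 scale (SE 0.12, adjusted p = 0.0133). Cidec, which enlarges lipid droplets, stood at 0.776, 12.8 and 1.72 CPM with E2 against 19.6, 15.4 and 15.1 in DIO liver and at 42.8, 46.0 and 85.5 against 116, 171 and 112 in ob/ob liver. It was common, but its spread was wide and the change did not pass the test (-1.43, SE 0.51, adjusted p = 0.134). Fitm2, which partitions triglyceride into droplets, fell by 0.63 (adjusted p = 0.0195, lost in 2 of the 12 fits without 1 library). Over 39 tested genes of fatty acid and triglyceride synthesis, 0 rose and 1 fell, 0 and 2 were common, and the median was 0.005 (-0.09 scaled by total counts alone, and -0.12 to 0.19 without 1 library). Over all genes 1.44% fell and 1.65% were common lower, and nothing is read from list counts this small.

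Of 40 tested genes of fatty acid oxidation and ketogenesis, 1 rose (Acot3) and 4 fell, 3 were common lower, and the median was -0.13. Over all genes 1.93% rose, 1.44% fell and 1.65% were common lower. Cpt1a, which admits fatty acids to mitochondria, went from 529, 677 and 556 CPM to 500, 481 and 373 in DIO liver and from 479, 509 and 520 to 286, 269 and 360 in ob/ob liver (-0.55, SE 0.12, adjusted p = 0.0221). Acadm, the medium-chain dehydrogenase, fell by 0.43 (SE 0.10, adjusted p = 0.0375). Leaving out 1 library at a time, the call of Cpt1a was lost in 5 of 12 fits (adjusted p up to 0.0688) and that of Acadm in 8 (up to 0.103). The list mean was -0.53, 0.12 and -0.24 in DIO E2 libraries 1 to 3 against -0.05 to 0.05 with vehicle, so that E2 library 2 lay above vehicle. Of 26 tested genes of cholesterol synthesis and uptake, 0 rose and 1 fell, Lpl (-0.70, adjusted p = 0.0199, lost in 1 of the 12 fits without 1 library), and 0 were common, at a median of 0.41. The 25 tested genes of glucose and fructose metabolism had 0 calls and 0 common genes, although at adjusted p under 0.05 edgeR called 1 higher and 2 lower in ob/ob liver. Bile acid genes had 2 rises, Cyp2c70 and the receptor Fgfr4 (lost in 10 of the 12 fits without 1 library), among 31, with 1 common higher and 2 lower (Scp2 and Acox2, adjusted p = 0.0548 and 0.0593). Nothing is read from these counts, since 1.93% of all genes rose and 1.95% and 1.65% were common higher and lower.

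Markers of Kupffer cells, the resident macrophages of liver, and of other macrophages held the largest share of common genes of the 26 lists. Ccr2, Ly6c2, Trem2, Gpnmb and Spp1 are among the genes of other macrophages in this list. Of 23 tested, 9 rose and 1 fell, and 8 were common higher and 1 lower, the last being Gpnmb. Over both models 16 lay above 0 and 7 below, and in ob/ob liver alone edgeR called 9 higher and 3 lower. The complement gene C1qb stood at 47.7, 57.1 and 67.3 CPM with vehicle and 91.8, 82.1 and 81.1 with E2 in DIO liver, and at 53.8, 53.6 and 56.0 against 81.0, 110 and 108 in ob/ob liver. Its groups lay well apart in both models, with a log2 change of 0.72 (SE 0.11, adjusted p = 0.00668). Timd4 (1.07, SE 0.22, adjusted p = 0.0237), a receptor for dying cells on Kupffer cells, went from 6.56, 7.89 and 10.6 CPM to 18.2, 12.1 and 13.1 in DIO liver and from 4.33, 1.25 and 3.53 to 7.71, 8.26 and 9.17 in ob/ob liver, a call lost in 3 of the 12 fits without 1 library. C1qa, C1qc, Clec4f, Csf1r, Adgre1 and Vsig4 rose by 0.57 to 0.91. C1qa and C1qc stayed called in all 12 fits without 1 library. Adgre1, Clec4f, Csf1r and Vsig4 did so in 7, 8, 9 and 10 of them. Summed CPM of the 23 markers was 1166 to 1387 with E2 against 856 to 1078 with vehicle in DIO liver, and 1120.4 to 1423 against 937 to 1433 in ob/ob liver. The mean over the 23 overlapped in part, at 0.06 to 0.44 in E2 against -0.23 to 0.33 in vehicle libraries of DIO liver and 0.03 to 0.46 against -0.05 to 0.07 in ob/ob liver. In whole liver, more cells of a type and more RNA per cell cannot be told apart. With the length trend removed 8 rose, 1 fell and 5 were common higher, and without E2 library 2 of ob/ob liver 3 rose.

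Markers of other blood cells moved with E2 in ob/ob liver. Of 15 tested neutrophil markers 7 rose and 0 fell over both models, and 0 were common. The granule gene Camp stood at 5.07, 19.3 and 10.8 CPM with E2 against 0.131, 0.0890 and 0.0599 in ob/ob liver, and at 0.274, 0.0484 and 0 against 0.0486, 0 and 0 in DIO liver. Summed CPM of the list was 166 to 502 with E2 against 79.0 to 212 with vehicle in ob/ob liver, and 26.9 to 41.7 against 17.8 to 68.2 in DIO liver. The mean over the list was 2.51 to 4.22 with E2 against -0.12 to 0.18 in ob/ob liver, and -0.16 to 1.39 against -0.31 to 0.29 in DIO liver. Camp and the mean were thus apart in ob/ob liver, where 12 of the 15 markers were called higher, while the summed levels overlapped in both models. Ly6g, Ctsg and Fcnb had too few counts to be tested. Its part in the common myeloid genes Pram1, Fpr2 and Siglece was not tested. Lymphocyte markers had 1 rise (Jchain) and 3 common increases among 24, with Igkc at 1.36 (adjusted p = 0.0548) and Cd3g at 0.84 (adjusted p = 0.093).

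Of 21 tested markers of liver endothelial cells, 4 rose and 0 fell, and 2 were common higher, at a median of 0.43. Dnase1l3, a nuclease of sinusoidal endothelium, rose from 38.2, 35.6 and 37.7 CPM to 68.0, 41.4 and 44.1 in DIO liver and from 35.6, 37.8 and 43.3 to 75.1, 75 and 76.2 in ob/ob liver (0.71, SE 0.13, adjusted p = 0.0134). Markers of stellate cells (18), cholangiocytes (13) and red cells and platelets (13) had 0 calls and 0 common genes. Nothing is read from this, since 3.37% of all genes were called and 3.6% common. In ob/ob liver alone edgeR called 1 stellate marker and 2 of red cells and platelets higher, beside 8.39% of all genes. Hepatocyte markers, such as the lipoprotein gene Apoa1 (0.72, adjusted p = 0.0436, lost in 8 of the 12 fits without 1 library), had 3 rises and 0 falls among 20, with 2 common higher and 1 lower (Tdo2, adjusted p = 0.115). Summed, they stood at 116550 to 126680 CPM with vehicle and 134480 to 167010 with E2 in DIO liver, and at 111070 to 142710 against 177840 to 200750 in ob/ob liver, so that E2 and vehicle did not overlap. With the length trend removed 1 hepatocyte marker rose and 0 were common, and without E2 library 2 of ob/ob liver 0 rose.

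Interferon response genes, which cells turn on against viruses, rose in 8 of 32 cases, with 0 falls, a median of 0.51 and 4 common increases. Without DIO E2 library 1, 15 rose and 10 were common, and without vehicle library 2 of ob/ob liver 1 rose. Irf7, the factor that amplifies the response, stood at 34.1, 49.8 and 44.3 CPM with vehicle and 61.7, 62.3 and 66.3 with E2 in DIO liver. In ob/ob liver it stood at 37.4, 37.2 and 29.4 CPM with vehicle and 53.4, 68.9 and 71.9 with E2. The E2 values lay above vehicle by a margin in each model, and Irf7 rose by 0.73 (SE 0.12, adjusted p = 0.0086). Oas1a, which makes the messenger that activates RNase L, rose by 0.68 (SE 0.16, adjusted p = 0.0309), and Ifi44 by 0.70 (adjusted p = 0.0424). Both calls were lost in 8 of the 12 fits without 1 library (adjusted p up to 0.0834 and 0.103). With the length trend removed 7 rose and 4 were common, and scaled by total counts alone 1 rose and 2 were common.

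Acute phase and complement genes, secreted mainly by hepatocytes, rose in 6 of 40 cases and fell in 1 (Steap4), with 4 common increases and a median of 0.15. Itih4, an inhibitor heavy chain of plasma, was at 2596, 2352 and 2491 CPM with E2 against 1810.3, 1843 and 2281 in DIO liver and at 2723, 2492 and 2300.4 against 1837, 1215 and 1541 in ob/ob liver (0.52, SE 0.12, adjusted p = 0.0328, lost in 9 of the 12 fits without 1 library). The 77 cytosolic ribosomal protein genes were all above 0, with 17 rises, 11 common increases and a median of 0.31. These transcripts are short. With the length trend removed 1 of the 77 rose, 3 were common and the median was 0.13, and without DIO E2 library 1, whose mean for the list was -0.04 against 0.35 and 0.38 in the other DIO E2 livers, 72 rose and 70 were common. Without vehicle library 1 of ob/ob liver 0 rose, and scaled by total counts alone 2 rose.

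Cell division genes were below 0 over both models in 42 of 46 cases, at a median of -0.68, with -0.30 in DIO and -0.98 in ob/ob liver. Summed CPM was 345 to 416 with E2 against 446.5 to 818 in ob/ob liver, but 263 to 376 against 201 to 288 in DIO liver, where the list mean also overlapped (-0.24 to -0.17 against -0.17 to 0.15). By the test 5 fell and 0 rose, and 4 were common lower. Without E2 library 2 of ob/ob liver 0 fell, and without DIO E2 library 1 14 fell. Ccnb2, the mitotic cyclin B2, stood at 6.10, 12.8 and 8.44 CPM with vehicle and 3.04, 2.95 and 4.25 with E2 in ob/ob liver. In DIO liver it was at 0.924, 0.887 and 1.03 with vehicle and 0.685, 0.872 and 0.679 with E2. The margin between E2 and vehicle in DIO liver was thus 0.872 against 0.887 CPM. Its log2 fold change was -1.01 (SE 0.24, adjusted p = 0.0359), and Bub1 (-1.69), Prc1 (-0.95) and Top2a (-0.70) fell too, the first at 1.78 CPM or less in each library. Without 1 library the calls of Ccnb2, Bub1, Prc1 and Top2a were lost in 6, 4, 2 and 8 of 12 fits. Nek2, a centrosome kinase outside this list, fell by 1.42 (SE 0.21, adjusted p = 0.00627). Of 37 extracellular matrix genes, 0 rose and 2 fell, Mmp12 (-1.79) and Lamc1 (-0.50), and 0 were common. These calls were lost in 7 and 8 of the 12 fits without 1 library, and that of the clock gene Nfil3 in 9. Of 19 clock genes 1 rose (Nfil3), with 0 common, and of 33 sulfotransferase, UGT and FMO genes 2 rose and 1 fell. Over all genes 1.93% rose and 1.44% fell, and nothing is read from the matrix, clock and sulfotransferase list counts.

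**Figure D5:**
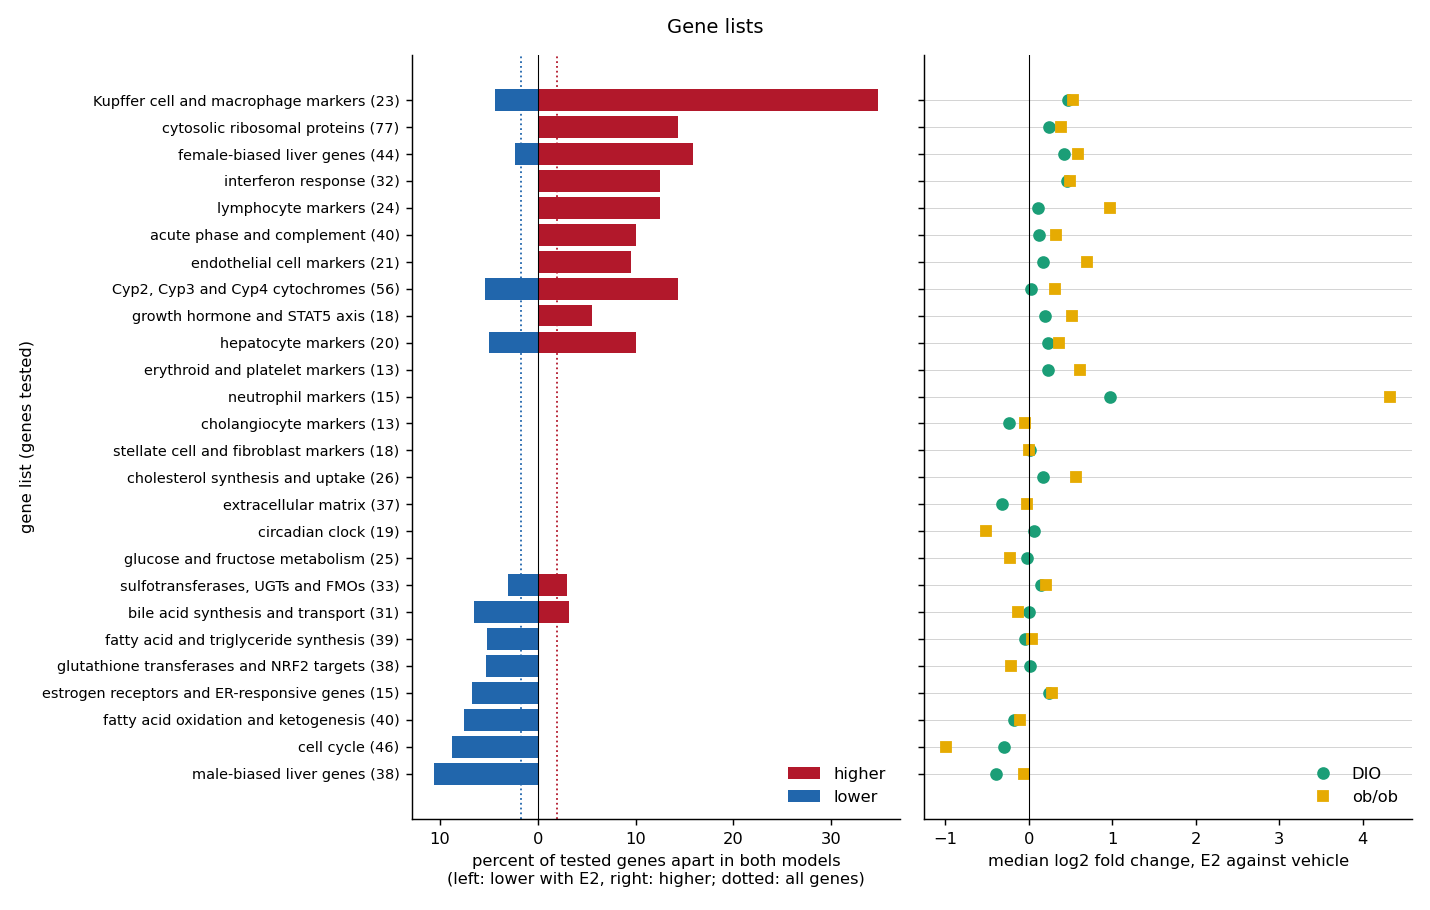
Left, percentage of each list's tested genes that were common, higher to the right and lower to the left, with dotted lines at 1.95% and 1.65% for all genes; right, the list's median log2 fold change in each model. Kupffer cell and macrophage markers have 8 common increases among 23 genes, and neutrophil markers have 0 although their median is 4.33 in ob/ob liver.

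The promoters of common genes were read from RefSeq sequences of build GRCm38.p6, from 250 bases before to 50 after each gene's start, since these show which known elements lie at the genes named above. The table held 11163 of the 14123 genes tested, 220 of the higher and 188 of the lower common genes. The interferon-stimulated response element, searched on both strands as GAAA, 2 free bases and GAAA, was present in 6.82% of higher, 1.60% of lower and 3.16% of all promoters. The STAT motif TTCNNNGAA, which reads the same on both strands, was present in 8.64%, 5.32% and 7.11%. The full palindrome of the estrogen response element, GGTCA and TGACC around 3 free bases, was in 0 of the 11163. Motif letters are in capitals in 3 promoters shown here for an interferon gene, for the common gene Tgm1 that holds both motifs, and for Gsta1, the named gene with the smallest p. They lie at chr5:120907476-120907775 (minus strand), chr14:55713443-55713742 (minus strand) and chr9:78230419-78230718 (plus strand).
Oas1a: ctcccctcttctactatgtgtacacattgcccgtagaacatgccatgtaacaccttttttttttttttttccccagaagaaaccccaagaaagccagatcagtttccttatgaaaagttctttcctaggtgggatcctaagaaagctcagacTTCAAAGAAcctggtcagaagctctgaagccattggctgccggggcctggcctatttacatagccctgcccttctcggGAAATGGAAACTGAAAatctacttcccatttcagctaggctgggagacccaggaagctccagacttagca
Tgm1: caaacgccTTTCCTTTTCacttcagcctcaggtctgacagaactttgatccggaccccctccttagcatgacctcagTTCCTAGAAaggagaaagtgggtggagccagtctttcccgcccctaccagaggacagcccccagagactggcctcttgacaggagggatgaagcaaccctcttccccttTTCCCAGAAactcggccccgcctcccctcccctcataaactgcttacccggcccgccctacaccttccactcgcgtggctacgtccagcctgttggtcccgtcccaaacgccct
Gsta1: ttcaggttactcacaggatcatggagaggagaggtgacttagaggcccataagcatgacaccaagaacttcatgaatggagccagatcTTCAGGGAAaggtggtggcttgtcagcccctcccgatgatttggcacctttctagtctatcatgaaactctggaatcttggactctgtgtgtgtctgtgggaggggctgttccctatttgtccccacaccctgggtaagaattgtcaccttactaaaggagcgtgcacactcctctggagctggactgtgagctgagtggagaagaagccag
Oas1a holds overlapping response elements close to its start and a STAT motif further up, Tgm1 holds a response element on the opposite strand and a pair of STAT motifs, and Gsta1 holds a STAT motif. A match of letters does not show that a factor binds there.

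The size of the E2 effect differed between the models for 2 of the 509 common genes by edgeR's test of the difference. Cyp2c40, a female-biased cytochrome, went from 267, 216 and 229 CPM to 340, 326 and 441 in DIO liver and from 7.87, 8.01 and 17.1 to 195, 156 and 155 in ob/ob liver. Both models rose, by 0.64 and 3.93 on the log2 scale, a difference of 3.29 (SE 0.35, adjusted p = 0.00383), while its test over both models gave an adjusted p of 0.0753. Clec4g, a lectin of sinusoidal endothelium, went from 43.5, 40.8 and 45.5 CPM to 64.7, 51.4 and 54.5 in DIO liver and from 26.5, 27.0 and 26.8 to 66.6, 69.3 and 68.7 in ob/ob liver. Its difference was 0.95 (SE 0.15, adjusted p = 0.036). Over all genes 8 were called for such a difference (0.0566%), so most pairs of effects were not told apart at this size of experiment.

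PaPE-1 values of these genes share their vehicle libraries with E2 and were obtained at another dose, so they are set beside the E2 values without a comparison. Gsta1 had a log2 fold change for PaPE-1 of -2.34 in DIO and -0.97 in ob/ob liver, beside -2.28 and -3.21 for E2. Cyp17a1 stood at -0.64 and 0.99, beside 1.34 and 1.06. Dct was at -0.38 and 0.48, beside 1.52 and 1.79, and Cux2 at 0.44 and 1.08, beside 1.11 and 2.84. Mup20 was at -0.25 and -0.20, beside -1.87 and -2.88. Cd36 was at -0.42 and -0.04, beside -0.63 and -0.74. In edgeR's fit over 18 libraries, Gsta1 in DIO liver was the one value of these to pass for PaPE-1 (adjusted p = 0.026).

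Of the 272 genes that were both common and called, 41 stayed called in each of the 12 fits without 1 library and in each of 8 other settings. They include C1qa, C1qb, C1qc, Irf7, Dct, Wfdc21, Sult1a1, Clec4g, Dnase1l3, Cd36, Gpnmb, Nrg1, Nek2 and Tgfbr2. Tgfbr2, a receptor of TGF-beta, fell from 34.4, 35.3 and 33.2 CPM to 30.1, 26.4 and 25.5 in DIO liver and from 64.6, 66.5 and 75.8 to 32.4, 28.2 and 31.8 in ob/ob liver (-0.75, SE 0.13, adjusted p = 0.0133). Of the 30 largest changes, 11 stayed called in each fit without 1 library and 15 in each of the 8 settings. In these counts, that of the 41 included, a gene left untested under a setting was taken as not called. For this reason the 41 and the 15, though not the 11, leave out Gsta1, Themis, Prrg4, Eci3 and Pram1. These genes stayed called in each of the 12 fits without 1 library and in each of the 7 settings that tested them. At the edge of the rule, Entpd8 was common by a gap of 6.0e-05 on the log2 scale and Fetub missed it by 4.8e-05, and 298 of the 509 genes had a gap under 0.1.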

How the data were processed

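Liver RNA was sequenced from 18 samples, and 12 of them, E2 and vehicle of both models, were compared here. The authors deposited raw counts per gene (40840 genes), which they made per the file headers and labels by aligning reads with STAR (2.7.6a) to GRCm39 and counting them over RefSeq exons with featureCounts (2.0.0, with its strand option set to 2). The labels say that 2 samples per group were sequenced, whereas 3 per group are given, and all were used. The labels call replicates biological without naming the mouse of each library. The DESeq2 results the authors also deposited (fold changes, p-values and 9 columns of normalized counts per table) were not used.

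Counts of both tables were joined by gene. The tools were edgeR (4.0.16), DESeq2 (1.42.0) and limma (3.58.1), run in R (4.3.3). TMM factors and a robust quasi-likelihood test were applied to the 14123 genes that pass filterByExpr, in a fit with a term for the model and a term for E2 over both models, and in a fit with 1 mean per group for effects within a model and their difference. A prior count of 2 was used for log2 CPM. Steps were tested on simulated data. The genes named are the 15 largest increases and decreases that were common, had an adjusted p under 0.05, at least 1 CPM in a group of each model and a symbol other than a clone or predicted-gene name. Up to 4 genes per list, chosen by common genes first and then by adjusted p, Esr1, Cux2, Bcl6, Socs2 and Cish, and up to 5 common genes with the smallest p for a difference between models were added. Other members of a list that are named were chosen after their values were seen. The members and lists were chosen with earlier results of these data known. Replicate numbers follow the order of the samples. Alternatives were other scalings, tests and filters, a fit of all 18 libraries, removal of the trend on exon length (loess, span 0.5) and each library left out. Model and the lane name in the headers cannot be told apart. Promoter sequences came from RefSeq (GRCm38.p6) and no coordinates were carried between builds.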

Additional observations from a re-analysis of the deposited data

Results flagged for a closer look

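The effect of E2 differed between the models, by edgeR's test of the difference itself, for 2 common genes. Cyp2c40 rose more in ob/ob liver than in DIO liver, by 3.29 on the log2 scale (adjusted p = 0.00383), from a vehicle level of 7.87 to 17.1 CPM in ob/ob liver. Clec4g rose more in ob/ob liver by 0.95 (adjusted p = 0.036), with its 3 ob/ob E2 libraries between 66.6 and 69.3 CPM. Groups of 3 libraries are too small to look for single outlying values.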

How the results depend on the processing

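No single-gene value changed sign. Medians near 0 did so for 3 lists: bile acid genes (-0.03 with total counts alone), cholangiocyte markers (0.05 without vehicle library 2 of ob/ob liver) and fatty acid and triglyceride synthesis (-0.09 with total counts, -0.008 with no filter, -0.04 with the length trend removed, and down to -0.12 without 1 library). Of 2453 single-gene values under other settings, 1990 stayed on their side of the threshold, 376 lost their call and 87 gained one, and 500 of 520 list medians moved by less than the spread between libraries. Genes called over both models numbered 159 higher and 474 lower with total counts alone, 697 and 526 with DESeq2, 141 and 111 with all 18 libraries in the fit, 684 and 553 as the mean of the within-model effects, and 52 and 52 at over 2-fold. Common genes numbered 143 and 432 with total counts alone. In ob/ob liver total counts gave 739 higher and 1975 lower. In DIO liver DESeq2 called 34 and 15, no filter gave 8 and 5, and a minimum of 10 counts gave 1 lower. A difference between the models was called in the higher direction for 11 genes with DESeq2 size factors, 3 with total counts, 173 with DESeq2, 75 with no filter, 18 with the count minimum, 1 with 18 libraries and 19 with the length trend removed. In the lower direction it was called for 10 with DESeq2 size factors, 226 with DESeq2, 93 with no filter, 9 with the count minimum and 25 with the length trend removed. Leaving out 1 library gave 43 to 1064 genes higher and 27 to 1082 lower over both models, 302 to 924 and 256 to 763 common, 0 to 160 and 0 to 143 in DIO liver, 308 to 1563 and 244 to 1729 in ob/ob liver, and 1 to 459 and 0 to 564 for the difference. The highest counts came without DIO E2 library 1, or, for DIO liver and the difference, without DIO E2 library 2. Genes apart in opposite directions numbered 136 to 780, the most without DIO E2 library 2. Fewer libraries make a group easier to lie apart, and otherwise the cause was not tested. No paired analysis was possible because the labels give no replicate numbers that the groups share.

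With 3 libraries a group, an effect missed in DIO liver is not shown to be absent.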

Other observations

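Other common genes, chosen after their values were seen, include further macrophage genes. The folate receptor Folr2 rose by 0.96 on the log2 scale (adjusted p = 0.0215), the ficolin Fcna by 0.87 (adjusted p = 0.0123) and the haemoglobin scavenger receptor Cd163 by 0.86 (adjusted p = 0.0354) in edgeR's quasi-likelihood test over both models. Folr2, Fcna and Cd163 stayed called in 9, 12 and 5 of the 12 fits without 1 library. Of 12 tested immunoglobulin genes, 4 were common higher and 0 lower, with Ighg1 at 2.65 (adjusted p = 0.0139) and Igha at 1.40 (adjusted p = 0.0377). Ighg1 stayed at 0.836 CPM or less in DIO liver. Ighg1 and Igha stayed called in 11 and 4 of the 12 fits without 1 library.

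The alpha-1 antitrypsin genes Serpina1d, Serpina1c and Serpina1b, abundant products of hepatocytes, rose by 0.82, 0.78 and 0.41 (adjusted p = 0.00598, 0.00627 and 0.0261 in edgeR). With the length trend removed none of them was common, and Serpina1b was no longer called (adjusted p = 0.0941). Serpina1d and Serpina1c stayed called in all 12 fits without 1 library, and Serpina1b in 6. Aldh1a1, a retinal dehydrogenase, fell by 0.81 and Gpd1, which makes glycerol phosphate for triglyceride, fell by 0.55. The lipoprotein receptor gene Vldlr fell by 0.63 (adjusted p = 0.0432, and 0.0874 with the length trend removed). Aldh1a1 and Gpd1 each stayed called in 10 of the 12 fits without 1 library, and Vldlr in 3. Pparg, the nuclear receptor that drives fat storage, was common lower without passing the test (-0.56, adjusted p = 0.08), at 10.4, 23.4 and 15.9 CPM with E2 against 31.7, 31.9 and 25.4 in DIO liver and at 29.0, 28.8 and 29.1 against 41.2, 29.8 and 33.6 in ob/ob liver.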
